A study of Mus musculus with 31 samples.

Results

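The genes described here are the subunits of the glutamate receptors and the auxiliary proteins that travel with them, measured in the thalamus of adult mice. They were taken from a fixed list of 36 genes, out of 25497 genes in the deposited tables, and fall into 4 AMPA, 5 kainate, 7 NMDA, 1 delta and 6 metabotropic receptor genes and 13 auxiliary genes. The list was chosen with earlier results of these data known, so its shares beside those of all genes are descriptions. The series compared adult offspring (postnatal day 90) of mothers housed under social isolation rearing (SIR) with offspring of control mothers, by bulk sequencing of polyadenylated RNA. The offspring themselves carry no stated allele or treatment beyond the housing of the mother, and strain, litter and batch are not given in the sources used here. Of the 31 libraries, 7 came from SIR males and 8 from SIR females, set against 8 from control males and 8 from control females, each from 1 thalamus sample, and the p-values below measure the spread between these samples.

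Glutamate carries most fast excitation in the brain. AMPA and kainate receptors are tetrameric channels that open within milliseconds of glutamate release, NMDA receptors are slower, calcium-permeable channels that need depolarization to relieve a magnesium block, and metabotropic receptors act through G proteins on both sides of the synapse. Auxiliary subunits (the TARPs encoded by the Cacng genes, the cornichons, the Shisa proteins and the Neto proteins) set how many channels reach the membrane and how fast they close. Thalamic relay neurons receive glutamate from sensory afferents and from the cortex, and pass it on to the cortex, so both ionotropic and metabotropic receptors shape what the thalamus transmits.

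Library totals lay between 13.004 and 25.74 M (mega) estimated counts, and all 36 genes passed the filter on low counts, which kept 14886 genes. The least abundant was Grin3b, with 4 to 29 estimated counts per library. Markers of thalamic relay neurons (13 genes) summed to between 2920 and 4879 counts-per-million (CPM) in every library, and none of them was at 0 in every library. In the library titled SIR female 5 the Y-linked Ddx3y stood at 41.6 CPM, beside 31.5 to 50.2 CPM in the libraries labelled male and at most 0.0481 CPM in the other libraries labelled female. It was kept under its label, and the calls that include it are given with and without it. All SIR libraries carry lower library numbers than all control libraries, so handling that followed the numbers cannot be told apart from the housing. In bulk tissue, fewer cells of a type and less RNA per cell cannot be told apart either.

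Levels were compared between genes in transcripts-per-million (TPM), which are per length. Among the AMPA receptor genes, Gria1 led with 140.3 ± 20.03 TPM (mean ± SD, n = 31), followed by Gria4 at 78.3 TPM, Gria2 at 62.4 TPM and Gria3 at 57.8 TPM. Gria1 exceeded Gria4 in 31 of 31 libraries, while Gria2 exceeded Gria3 in 18 of 31, so the order of that last pair was not stable across libraries. Of the kainate receptor genes, Grik5, which encodes a high-affinity subunit that needs a partner to form channels, was highest at 52.7 TPM. Grik2, a principal pore-forming kainate subunit, followed at 20.6 TPM, and Grik3 (11.97 TPM) and Grik1 (11.7 TPM) did not hold a stable order, with Grik3 ahead in 17 of 31 libraries. Grik4 was lowest of the class at 9.60 TPM.

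Grin1, the subunit present in every NMDA receptor, had the highest level of all 36 genes at 231 TPM. Of the glutamate-binding partners, Grin2b stood at 36.3 TPM, Grin2c at 24.5 TPM, Grin2d at 21.3 TPM and Grin2a at 17.5 TPM. This order depends on the length scaling, with effective lengths of 21772 bases for Grin2b, 13889 for Grin2a, 5971 for Grin2d and 5162 for Grin2c. Without it, in control mice, Grin2b averaged 431 CPM and Grin2a 135 CPM, against 65.0 CPM for Grin2c and 63.4 CPM for Grin2d. Of the glycine-binding Grin3 genes, Grin3a stood at 26.6 TPM and Grin3b at 0.402 TPM. Grid1, the delta receptor gene, averaged 42.8 TPM. The metabotropic genes were led by Grm4, a presynaptic Gi-coupled receptor, at 57.7 TPM, and Grm7, Grm3 and Grm5 followed at 40.0, 38.6 and 37.9 TPM, an order that changed between libraries (Grm7 above Grm3 in 18, Grm3 above Grm5 in 17 of 31). Grm2 stood at 21.4 TPM and Grm8 at 7.77 TPM.

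The auxiliary genes were led by the cornichon gene Cnih2 at 199.6 TPM and the TARP gene Cacng7 at 188 TPM, and Cnih2 was the higher in 21 of 31 libraries. Shisa9 (61.4 TPM) and Cacng4 (60.0 TPM) changed places from library to library, with Shisa9 ahead in 16 of 31. The others ran down from Cacng2 at 43.9 TPM to Neto1 at 10.8 TPM. Without the length scaling, by CPM, the leading gene was the same in 4 of the 5 classes with several genes, and Cacng7 took the place of Cnih2 among the auxiliary genes. Lower places changed too, with Grik3 (59.3 CPM in control mice) above Grik2 (42.9 CPM).

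**Figure D1:**
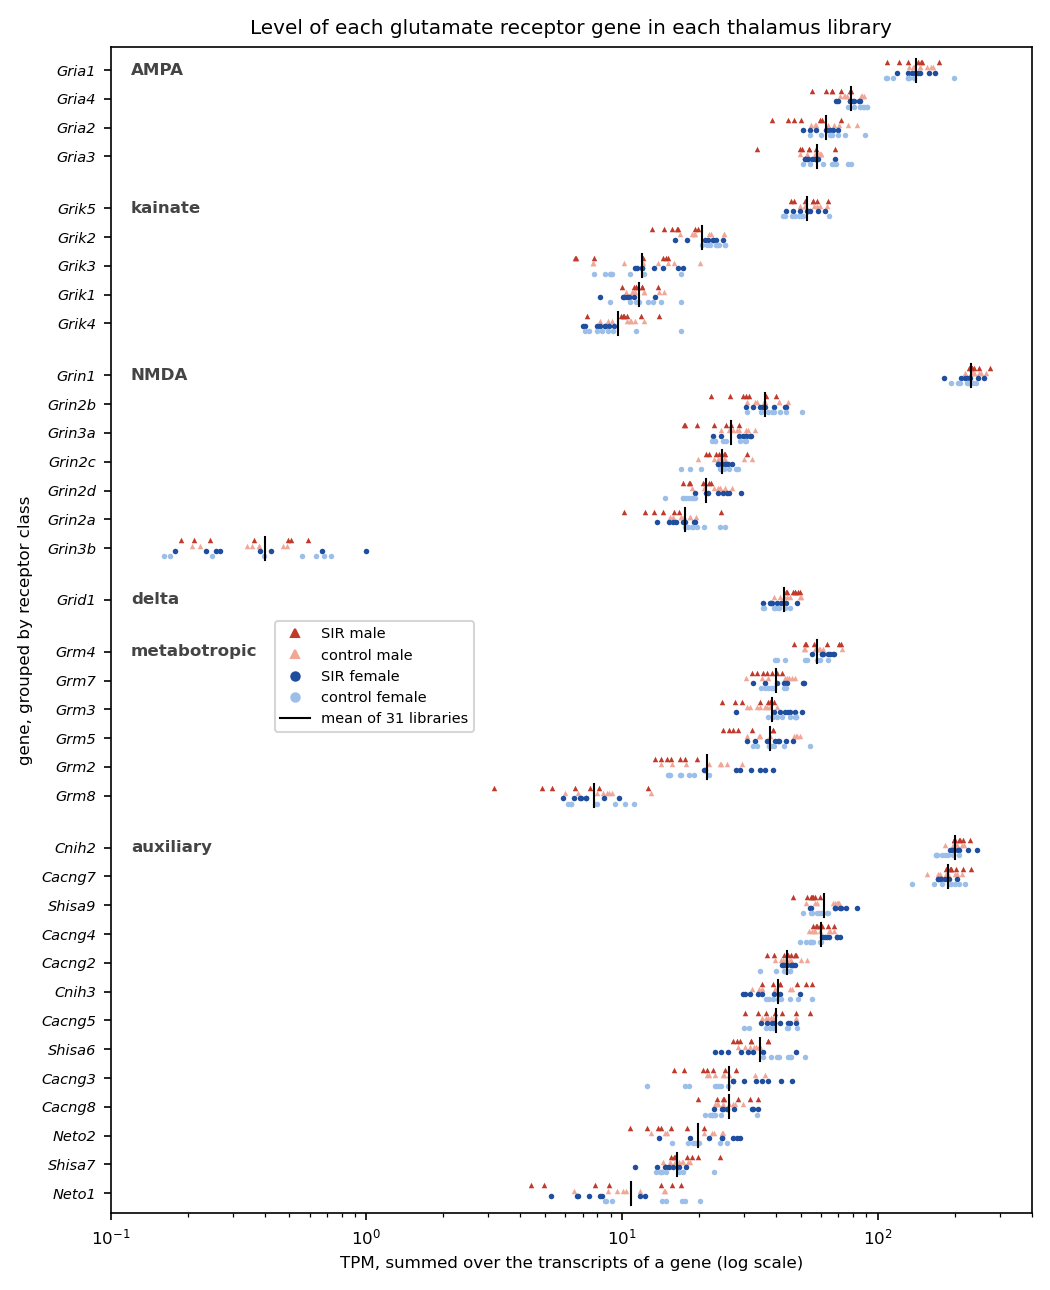
TPM of each of the 36 genes in each library, on a log axis, by receptor class, with 1 point per library (triangles for males, circles for females, dark for SIR and light for control) and a black line at the mean of 31 libraries. Grin1, Cnih2, Cacng7 and Gria1 lie above 100 TPM on average, and Grin3b below 1 TPM.

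Expression was also summed over each class in TPM. AMPA receptor genes summed to 312 ± 32.7 TPM in SIR males, against 351 ± 27.9 TPM in control males, and to 337 ± 20.2 TPM in SIR females, against 351 ± 28.4 TPM in control females (mean ± SD). NMDA receptor genes summed to 354 ± 23.9 TPM in SIR males, against 372 ± 20.9 TPM in control males, and to 356 ± 30.9 TPM in SIR females, against 347 ± 24.6 TPM in control females. Metabotropic genes summed to 183 ± 15.8 TPM in SIR males, against 206 ± 14.5 TPM in control males, and to 224 ± 21.7 TPM in SIR females, against 198 ± 11.5 TPM in control females. Without the library titled SIR female 5, SIR females averaged 341 TPM for the AMPA, 358 TPM for the NMDA and 227 TPM for the metabotropic genes. These sums are given as a description, and the ranges of the groups overlapped in each class.

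AMPA receptor genes carry a pair of alternative exons, flip and flop, that set how fast the channel desensitizes. In Gria1 they are 115 bases long each (exon 14 of both transcripts, chromosome 11), identical at 68.7% of positions and different at 36. The pair is shown because the share of the forms is a property of these receptors that gene totals hide. Sequences are from the GENCODE M21 transcripts, 5′ to 3′, and capitals mark the bases that differ.
Gria1 flip (Gria1-201): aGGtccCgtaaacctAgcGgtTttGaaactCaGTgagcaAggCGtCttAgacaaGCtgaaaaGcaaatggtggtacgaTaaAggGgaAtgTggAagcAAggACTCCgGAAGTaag
Gria1 flop (Gria1-202): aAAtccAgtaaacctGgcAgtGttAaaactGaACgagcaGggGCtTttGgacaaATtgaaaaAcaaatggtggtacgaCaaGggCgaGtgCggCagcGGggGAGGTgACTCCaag

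The flip form took 62.6 ± 2.36% of the flip and flop TPM of Gria1 in SIR males, against 64.8 ± 2.92% in control males. It took 66.1 ± 3.66% in SIR females, against 60.7 ± 4.39% in control females. The ranges overlapped in both sexes, from 62.0% to 71.7% in SIR females and from 54.4% to 65.6% in control females. Tested by edgeR as transcripts, Gria1-201 had a log2 fold change of 0.25 ± 0.09 (SE) in SIR females over control females, with an adjusted p of 0.288, and Gria1-202 one of -0.11 ± 0.12, with an adjusted p of 0.974. Without the library titled SIR female 5 the flip share in SIR females was 65.5 ± 3.46% (n = 7), and Gria1-201 had a log2 fold change of 0.23 (edgeR adjusted p 0.418). Forms were assigned by a short amino acid pattern of flip or flop in the translated transcript, so an incomplete transcript can match neither. Over all 31 libraries the flip share was 80.0% in Gria2, 15.1% in Gria3 and 25.1% in Gria4. In Gria4, 47.7% of the gene's TPM lay in transcripts that matched neither pattern. These shares rest on how kallisto divides reads between near-identical transcripts, and that uncertainty is not in the SD.

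Among genes that passed, the largest differences between the housing groups were in females. In SIR females against control females, 7 of the 36 genes (19.4%) passed an adjusted p of 0.05 in edgeR's quasi-likelihood test with Benjamini-Hochberg adjustment over all genes, beside 4.62% of all genes tested. Of these, 6 were higher in SIR females (2.38% of all genes tested were) and 1, Neto1, was lower (2.24% were). The 6 higher genes were Grm2, Cacng3, Grin2d, Cacng4, Shisa9 and Cnih2, of which 4 are auxiliary subunits of AMPA receptors. The adjusted p-values of the AMPA and kainate receptor genes were 0.149 (Grik1) or higher. The median log2 fold change of the 36 genes was 0.02, beside -0.01 over all genes tested.

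Grm2 encodes a Gi-coupled receptor that lowers transmitter release. It had 47.7, 65.6 and 79.6 CPM (lowest, median and highest) in SIR females, against 29.7, 37.9 and 45.4 CPM in control females. Every SIR female library lay above every control female library. The means were 64.8 ± 11.7 CPM in SIR females and 37.8 ± 4.81 CPM in control females (SD, n = 8 each), a 1.71-fold difference with a log2 fold change of 0.78 ± 0.12 (SE) and an adjusted p of 0.000706.

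Grin2d encodes the NMDA receptor subunit with the slowest current decay and a weak magnesium block. It had 64.8, 73.2 and 90.5 CPM in SIR females, against 46.8, 56.3 and 59.1 CPM in control females. Again no library of one group reached into the other. The log2 fold change was 0.42 ± 0.07, or 1.33-fold, with an adjusted p of 0.000706 in the same edgeR test.

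Cacng3 encodes a TARP, a membrane protein that brings AMPA receptors to the synapse and slows their closing. It had 28.6, 38.1 and 47.3 CPM in SIR females, against 15.2, 22.95 and 30.4 CPM in control females, with a log2 fold change of 0.77 ± 0.12, or 1.70-fold (edgeR adjusted p 0.000706). The groups overlapped through 1 library, control female 31, and 7 of 8 SIR females lay above every control female. Cacng4, another TARP gene, had 112, 119 and 124 CPM in SIR females, against 89.7, 97.8 and 106 CPM in control females, with no overlap and a log2 fold change of 0.28 ± 0.05 (edgeR adjusted p 0.00162). Grm2, Grin2d and Cacng4 were the 3 of the 36 genes whose SIR female and control female libraries did not overlap, beside 0.652% of all genes tested, and they were the same 3 without the library titled SIR female 5, beside 0.806%.

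Shisa9 encodes an AMPA receptor partner that affects desensitization and recovery. It had 108, 129.8 and 142 CPM in SIR females, against 100.5, 108 and 119.7 CPM in control females, and the groups overlapped (log2 fold change 0.22 ± 0.07, edgeR adjusted p 0.0427). Cnih2, whose product helps AMPA receptors leave the endoplasmic reticulum, had 147, 155 and 181 CPM in SIR females, against 129, 138 and 152.5 CPM in control females, also overlapping (0.18 ± 0.05, edgeR adjusted p 0.0440).

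All 7 genes passed again without the library titled SIR female 5, with log2 fold changes of 0.83 for Grm2, 0.79 for Cacng3, 0.44 for Grin2d, 0.27 for Cacng4, 0.26 for Shisa9, 0.19 for Cnih2 and -0.63 for Neto1. When 8 libraries with library numbers far from the others (3 SIR and 5 control) were left out, 0.302% of all genes tested passed in females, and 2 of the 36 genes did, Cacng3 (0.77, edgeR adjusted p 0.0113) and Grin2d (0.34, edgeR adjusted p 0.0429), and Grm2 stood at 0.74 with an adjusted p of 0.0601.

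Marker genes of other cells moved between the same groups. Over all genes tested 2.38% were higher in SIR females and 2.24% lower. Oligodendrocyte markers (12 genes, all tested) summed to 8561 to 11570 CPM in SIR females, against 11170 to 13280 CPM in control females, and 6 of the 12 were lower in SIR females, none higher. Midbrain and monoamine neuron markers (10 genes, 7 tested) summed to 18.5 to 46.1 CPM in SIR females, against 25.9 to 119 CPM in control females, with 3 lower and none higher. Choroid plexus markers (11 genes) summed to 303 to 730 CPM in SIR females, against 394 to 3231 CPM in control females, with 3 lower and none higher, and no marker of these lists was at 0 in every library. Without the library titled SIR female 5, 4 oligodendrocyte and 3 midbrain markers were lower in edgeR, and the 3 choroid plexus calls were lost. Thalamic relay neuron markers (13 genes, all tested) summed to 3479 to 4336 CPM in SIR females, against 2920 to 4459 CPM in control females, and 3 of the 13 were higher in SIR females, none lower, with and without that library. Of the 10 reticular nucleus and prethalamic GABA neuron markers 8 had a positive log2 fold change, with a median of 0.16, and none passed. Of 7 habenula markers tested 1 was higher, and of 11 endothelial and mural markers 1 was lower. Of 13 hippocampus and cortex markers tested 1 was higher and 1 lower, the lower call lost without the library titled SIR female 5. Across the 31 libraries the Spearman correlation with the relay neuron score was 0.69 for Grm2, 0.61 for Shisa9, 0.50 for Cacng4, 0.35 for Cnih2, 0.21 for Grin2d and 0.18 for Cacng3. With the oligodendrocyte score it lay between -0.72 (Grin2d) and -0.30 (Grm2) for these 6 genes. With the midbrain score it was -0.63 for Grm2, -0.60 for Cacng4, -0.46 for Shisa9, -0.44 for Cnih2, -0.36 for Cacng3 and -0.31 for Grin2d. Grin2d also stood at -0.68 with the oligodendrocyte precursor score and -0.56 with the endothelial and mural score. Cacng3 stood at -0.52 with the endothelial and mural, 0.47 with the habenula and 0.36 with the hippocampus and cortex score. All are descriptions over libraries that share groups and dissection. With 2 principal components of the marker scores in the model, the log2 fold changes were 0.81 for Grm2 (edgeR adjusted p 0.000595), 0.94 for Cacng3 (3.75e-05), 0.40 for Grin2d (0.00097) and 0.26 for Cacng4 (0.00301). The scores were not rescaled before the components were taken, so lists with widely spread scores weigh most. Choroid plexus scores ran from -0.908 to 4.153, oligodendrocyte scores from -0.416 to 0.319 and relay neuron scores from -0.387 to 0.37. The part of the oligodendrocyte and relay neuron shifts in these differences was therefore not tested.

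Neto1, an auxiliary protein of kainate receptors that also binds NMDA receptors, was the gene that fell. It had 12, 15.01 and 20.1 CPM in SIR females, against 17.1, 20.4 and 38.8 CPM in control females, and the groups overlapped. The log2 fold change was -0.67 ± 0.17 (edgeR adjusted p 0.0219). Control females 20 and 29 had 38.8 and 38.6 CPM, far above the other control females except control female 31 at 29.7 CPM. Across the 31 libraries Neto1 followed the score of the midbrain markers (mean log2 expression, centred) with a Spearman correlation of 0.83, given as a description since the libraries share groups and dissection. Without control females 29 and 31, the 2 libraries with the highest midbrain scores, an alternative chosen after seeing the data, the log2 fold change was -0.50 with an adjusted p of 0.147. With the 2 components of marker scores in the model it was -0.47 with an adjusted p of 0.0583. Grm2, Cacng3, Grin2d and Cacng4 kept their calls without those 2 libraries, at 0.75 for Grm2, 0.85 for Cacng3, 0.39 for Grin2d and 0.28 for Cacng4, while Shisa9 (adjusted p 0.102) and Cnih2 (adjusted p 0.115) did not.

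**Figure D2:**
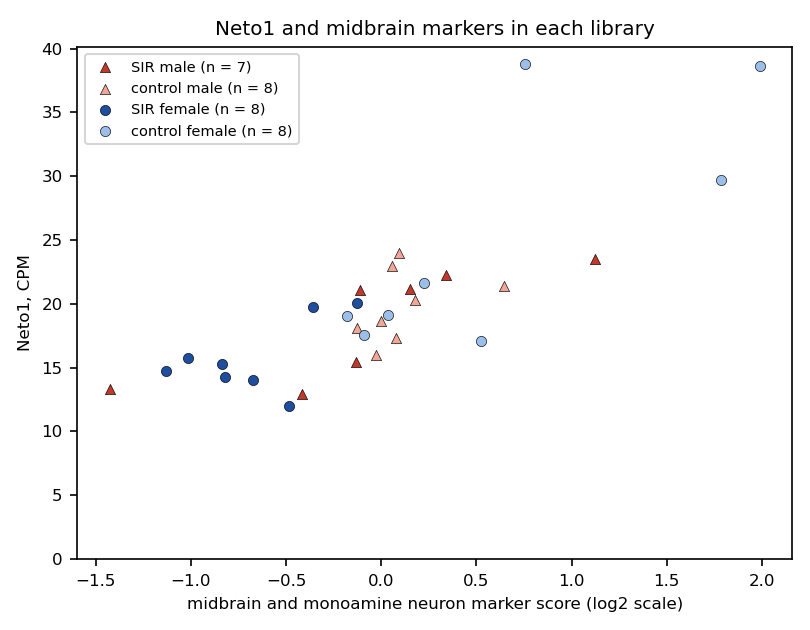
Neto1 in CPM against the midbrain and monoamine neuron marker score (log2 scale) in each of the 31 libraries, with SIR in dark and control in light symbols. SIR females lie at scores of -0.13 or lower and at 12 to 20.1 CPM, and the 3 libraries highest in Neto1 are control females 20, 29 and 31.

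The SIR effect differed between the sexes for 6 of the 36 genes (16.7%), beside 2.83% of all genes tested, by the interaction term of the same edgeR model (male effect minus female effect). All 6 differences were negative, meaning that SIR minus control was lower in males than in females. Over all genes tested 1.75% passed with a negative and 1.08% with a positive difference. Grm2 had the largest at -1.13 ± 0.18 (log2 ± SE, adjusted p 0.000904), followed by Cacng3 at -0.97 ± 0.18 (0.00187), Grin2d at -0.61 ± 0.10 (0.000886), Grin3a at -0.45 ± 0.12 (0.0281), Shisa9 at -0.44 ± 0.09 (0.0077) and Cacng4 at -0.26 ± 0.07 (0.0379). The median difference over the 36 genes was -0.10, beside 0.00 over all genes tested, and all 6 metabotropic genes had a negative one.

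Marker lists moved in the same contrast. Of the 12 oligodendrocyte markers 9 passed with a positive difference (male effect minus female effect) and none with a negative one, with a median of 0.41, and 8 passed without the library titled SIR female 5. Their sum was 9474 to 11490 CPM in SIR males, against 8233 to 11240 CPM in control males, beside the female sums given above. Of the 6 oligodendrocyte precursor markers 2 passed with a positive difference, and of the 13 relay neuron markers 3 passed with a negative one. All 7 tested midbrain markers had a positive difference, with a median of 1.31, and 1 passed. Of the 11 choroid plexus markers 10 had a positive difference, with a median of 0.57, and none passed. Of the 11 endothelial and mural markers 10 had a positive difference, with a median of 0.25, and 1 passed. All 10 microglia markers had a positive one, with a median of 0.12, and none passed. Spearman correlations with the endothelial and mural score were -0.76 for Grin3a, -0.56 for Grin2d and -0.54 for Shisa9. They were -0.52 for Cacng3, -0.35 for Grm2 and -0.02 for Cacng4 (n = 31, a description). With 2 principal components of the marker scores in the model, the differences were -1.17 for Grm2 (edgeR adjusted p 0.00021), -1.08 for Cacng3 (0.000169), -0.60 for Grin2d (0.000223), -0.48 for Grin3a (0.00558), -0.47 for Shisa9 (0.00225) and -0.26 for Cacng4 (0.0302). Oligodendrocyte, relay neuron, microglia, and endothelial and mural scores weigh little in these components. The part of their shifts in the differences was not tested.

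In males none of these 6 genes passed on its own in edgeR, with 4 of them at an unadjusted p under 0.05 and log2 fold changes from -0.35 (Grm2) to 0.02 (Cacng4). The share of all genes under that unadjusted p was not counted. Grm2 had 30.4, 34.9 and 47.3 CPM in SIR males, against 30.9, 49.98 and 57.8 CPM in control males (-0.35 ± 0.13, edgeR adjusted p 0.141). Cacng3 had 18.4, 24.8 and 29.9 CPM in SIR males, against 22.1, 28.8 and 33.3 CPM in control males (-0.21 ± 0.13, edgeR adjusted p 0.413). Grin2d had 54.6, 61.7 and 69.3 CPM in SIR males, against 55.2, 73.2 and 80.2 CPM in control males (-0.20 ± 0.07, edgeR adjusted p 0.133). In each case the male groups overlapped and the male difference alone did not pass.

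Grin3a encodes an NMDA receptor subunit that lowers calcium entry and magnesium block. It passed for the difference between the sexes and in neither sex alone. It had 67.5, 87.8 and 100.4 CPM in SIR males, against 89.7, 105 and 121 CPM in control males (-0.32 ± 0.08, edgeR adjusted p 0.0522). In SIR females it had 92.0, 109 and 117 CPM, against 84.9, 91.7 and 122 CPM in control females (0.14 ± 0.08, edgeR adjusted p 0.359).

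Cacng4 stood at 103, 107 and 134.5 CPM in SIR males, against 99.0, 109 and 124 CPM in control males, a log2 fold change of 0.02 ± 0.05 (edgeR adjusted p 0.913). Shisa9 stood at 93.4, 103 and 113 CPM in SIR males, against 98.9, 121 and 142 CPM in control males (-0.21 ± 0.07, edgeR adjusted p 0.0886). Both male comparisons overlapped. For Grm2, Cacng3, Grin2d and Shisa9 the difference between the sexes passed in each of the 13 other settings, the one without the library titled SIR female 5 included (-1.18, -0.999, -0.63 and -0.47). Without the 8 libraries with numbers apart, Grin3a (adjusted p 0.0846) and Cacng4 (adjusted p 0.113) no longer passed. Of the 13 other settings, the Cacng4 difference lost its call in 5 and the Grin3a difference in 3, this one included.

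**Figure D3:**
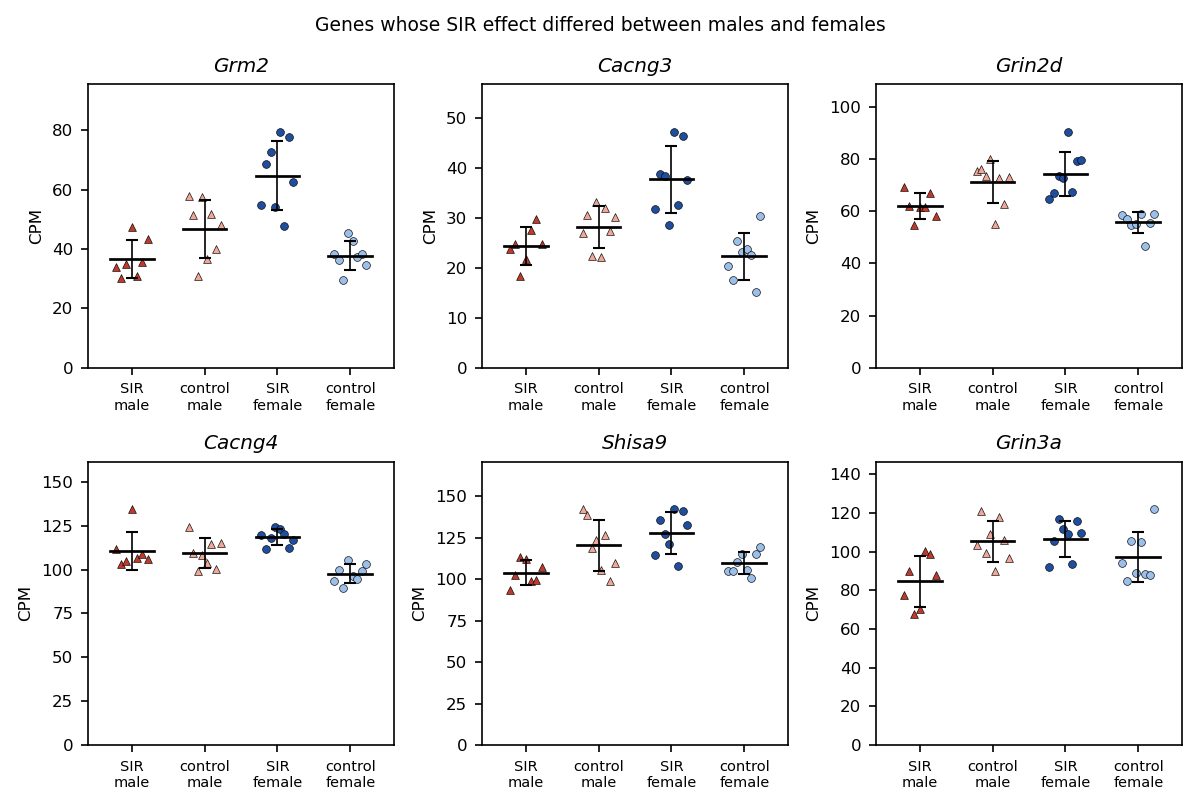
CPM of the 6 genes whose SIR effect differed between males and females, with 1 point per library, a black line at the mean and error bars of 1 SD, for SIR males (n = 7), control males (n = 8), SIR females (n = 8) and control females (n = 8). In Grm2 and Grin2d the SIR females lie above all control females, and the SIR male mean lies below the control male mean.

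**Figure D4:**
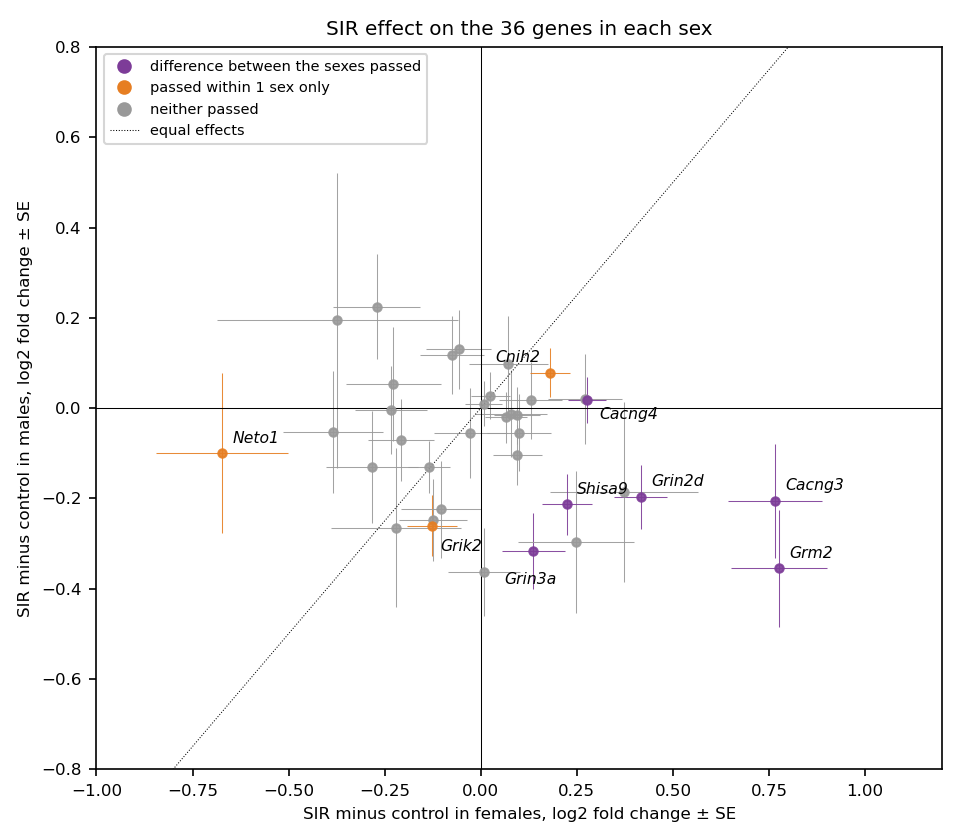
Log2 fold change of SIR over control in males (vertical) against that in females (horizontal) for each of the 36 genes, with SE bars, the dotted line marking equal effects. Grm2, Cacng3 and Grin2d lie farthest to the right and below the horizontal zero line, and Neto1 lies farthest to the left.

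Promoter sequence is shown for Grm2 and Grin2d because these genes were among those with the largest differences between the sexes, and in both the SIR female and control female libraries did not overlap. Windows hold the 250 bases before the annotated start, from RefSeq on GRCm38.p6, and 23 of the 36 genes had at least 1 window (28 windows). Capitals mark matches to the letters GGGCGG (the GC box) on either strand, which 32.7% of 32851 promoter windows of the same length hold.
Grm2, chr9:106656110-106656359, minus strand: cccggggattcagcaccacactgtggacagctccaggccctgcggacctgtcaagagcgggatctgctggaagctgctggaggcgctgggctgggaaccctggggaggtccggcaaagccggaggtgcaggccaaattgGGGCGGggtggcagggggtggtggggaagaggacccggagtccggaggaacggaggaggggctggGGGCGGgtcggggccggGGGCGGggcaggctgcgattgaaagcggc
Grin2d, chr7:45866682-45866931, minus strand: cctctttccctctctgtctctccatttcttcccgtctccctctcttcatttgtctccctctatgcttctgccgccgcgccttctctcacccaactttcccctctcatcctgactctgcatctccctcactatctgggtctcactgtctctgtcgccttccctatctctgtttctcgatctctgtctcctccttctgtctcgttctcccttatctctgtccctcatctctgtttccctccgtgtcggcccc

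The Grm2 window was the richer in G and C at 71.2%, with 16 CpG pairs and 3 GC box matches. The Grin2d window had 54.4% and 9 CpG pairs, beside medians of 52.4% and 6 over all windows, and it did not hold the GC box letters. Among all windows of the receptor and auxiliary genes 15 of 28 held them. The letters TGACGTCA (the cyclic AMP response element), TATAAA (the TATA box) and AGGTCA (the nuclear receptor half-site) were found in 0, 1 and 2 of the 28 windows, beside 1.55%, 12.4% and 14.02% of all windows, both strands searched, and in neither of the windows shown.

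In males, 1 of the 36 genes (2.78%) passed in SIR against control, beside 1.33% of all genes tested (1.05% lower). It was Grik2, with 29.6, 34.9 and 37.2 CPM in SIR males, against 32.7, 40.65 and 49.2 CPM in control males. Its groups overlapped, as they did for each of the 36 genes in males, beside 0.484% of all genes tested without overlap. The log2 fold change was -0.26 ± 0.07 (edgeR adjusted p 0.0457). In the same comparison 3 of the 12 oligodendrocyte markers were higher in SIR males, none lower, and 1 of the 13 relay neuron markers was lower. Over all genes tested 0.282% were higher in SIR males and 1.05% lower. All 10 microglia and 10 of the 11 endothelial and mural markers had a positive log2 fold change, with list medians of 0.14 and 0.22. Microglia markers summed to 424 to 493.1 CPM in SIR males, against 387 to 479 CPM in control males, and endothelial and mural markers to 572 to 665.5 CPM in SIR males, against 479 to 649 CPM in control males. Across the 31 libraries Grik2 had a Spearman correlation of -0.61 with the endothelial and mural score and -0.56 with the microglia score (a description). With the 2 components of marker scores in the model Grik2 stood at -0.26 (edgeR adjusted p 0.0274). Endothelial and mural scores (-0.343 to 0.275) and microglia scores (-0.245 to 0.161) weigh little in these components, and their part was not tested. Grin3a and Grm5, a Gq-coupled postsynaptic receptor, came closest among the rest, with Grm5 at 63.2, 75.4 and 87.5 CPM in SIR males, against 80.1, 96.1 and 127.8 CPM in control males (-0.36 ± 0.10, edgeR adjusted p 0.0530). Of the 36 genes 24 had a negative log2 fold change and 12 a positive one, with a median of -0.06, beside 0.00 over all genes tested. All 4 AMPA receptor genes were on the negative side, with adjusted p-values of 0.140 (Gria2) or higher. The median effective length was 3805 bases for these genes and 2434 bases for all genes tested, and with the length trend removed the median in males was 0.01. The Grik2 call was lost in 8 of 14 other settings, the one with the length trend removed included (-0.22, adjusted p 0.113).

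Over both sexes, 4 of the 36 genes (11.1%) passed in SIR against control, beside 4.55% of all genes tested, and the largest of these differences was 1.14-fold (Grik2). The 4 were 2 higher and 2 lower, beside 1.76% of all genes higher and 2.79% lower. Gria4, an AMPA receptor subunit, had 107, 129.4 and 146 CPM in SIR mice, against 121, 142 and 168 CPM in control mice (-0.13 ± 0.04, edgeR adjusted p 0.04997). Grik2 had 29.6, 36.5 and 44.1 CPM in SIR mice, against 32.7, 43.7 and 49.2 CPM in control mice (-0.19 ± 0.05, edgeR adjusted p 0.0233). Cacng4 had 103, 112.5 and 134.5 CPM in SIR mice, against 89.7, 102 and 124 CPM in control mice (0.15 ± 0.04, edgeR adjusted p 0.0232). Cnih2 had 143, 154 and 186 CPM in SIR mice, against 129, 146.5 and 170.5 CPM in control mice (0.13 ± 0.04, edgeR adjusted p 0.0466).

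The SIR and control libraries overlapped for each of these 4 genes. In Cacng4 15 of 15 SIR libraries lay above the median of the 16 control libraries of both sexes. Within the sexes, 8 of 8 SIR females lay above the control female median, and 2 of 7 SIR males above the control male median. Grik2 and Cacng4 kept their calls when any 1 of the 31 libraries was left out, while Gria4 lost its call in 23 of these 31 fits and Cnih2 in 19. Without the library titled SIR female 5, Grik2 (-0.18, adjusted p 0.0409) and Cacng4 (0.15, adjusted p 0.0396) passed, and Gria4 (adjusted p 0.0797) and Cnih2 (adjusted p 0.0540) did not. Without the 8 libraries with numbers apart, no gene of the 36 and no gene of all genes tested passed in edgeR. In that fit 7 of the 36 had an unadjusted p under 0.05, a share that was not counted over all genes. The median log2 fold change of the 36 genes was 0.00, beside -0.01 over all genes tested.

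**Figure D5:**
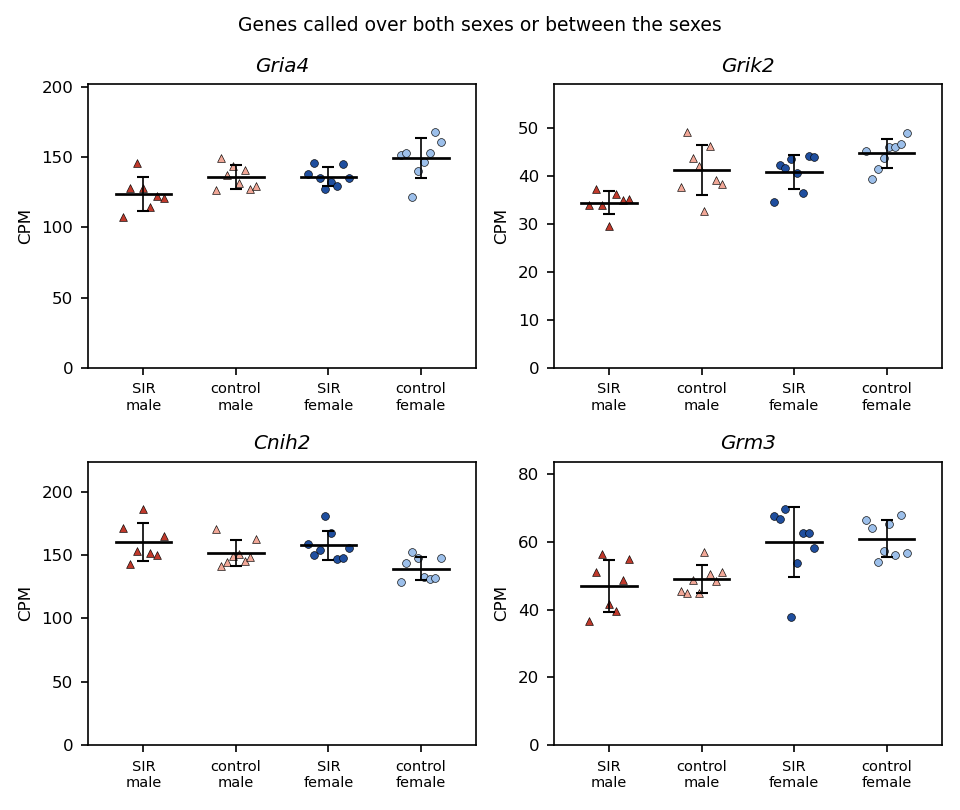
CPM of Gria4, Grik2, Cnih2 and Grm3 in each library, with a black line at the mean and error bars of 1 SD, for SIR males (n = 7), control males (n = 8), SIR females (n = 8) and control females (n = 8). Grm3 lies lower in males than in females under both housings, while the housing groups overlap in every panel.

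Between the sexes, averaged over both housings, 4 of the 36 genes (11.1%) passed, beside 10.1% of all genes tested, a share near that background. Of the 4, 3 were lower in males and 1 higher, beside 5.65% of all genes lower and 4.44% higher. Grm3, a Gi-coupled receptor found on neurons and astrocytes, had 36.8, 48.8 and 57.2 CPM in males, against 37.8, 62.65 and 69.8 CPM in females. The means were 48.1 ± 5.96 CPM in males (n = 15) and 60.5 ± 8.02 CPM in females (n = 16), with a log2 fold change of -0.33 ± 0.07 (edgeR adjusted p 0.00296). Of the 15 male libraries 15 lay below the female median, though the lowest female, SIR female 2, reached into the male range. Oligodendrocyte markers moved with it, and their part in the result was not tested. Across libraries the Spearman correlation of Grm3 with their score was 0.72 (n = 31, a description). The fit with 2 components of marker scores, in which the oligodendrocyte score weighs little, gave -0.34 (edgeR adjusted p 0.0119).

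Gria4 averaged 130.1 ± 11.7 CPM in males and 142.5 ± 12.7 CPM in females (-0.14 ± 0.04, edgeR adjusted p 0.0282). Grik2 averaged 38.0 ± 5.34 CPM in males and 42.8 ± 3.77 CPM in females (-0.18 ± 0.05, edgeR adjusted p 0.0134). Grin1 averaged 522 ± 39.1 CPM in males and 481 ± 31.3 CPM in females, and it was the gene of the 4 that was higher in males (0.12 ± 0.04, edgeR adjusted p 0.0364). The sexes overlapped for all 36 genes, beside 0.00672% of all genes tested without overlap, a share that the male-like Y-linked level of the library titled SIR female 5 bears on. Without that library the sexes again overlapped for all 36 genes, beside 0.0739% of all genes tested without overlap. All 4 passed again without the library titled SIR female 5, with log2 fold changes of -0.33 for Grm3, -0.14 for Gria4, -0.19 for Grik2 and 0.12 for Grin1. Of 13 other settings Grin1 lost its call in 6, the one with marker components included, Gria4 in 4 and Grik2 in 1. Spearman correlations with the oligodendrocyte score were -0.46 for Grin1, 0.48 for Gria4 and 0.10 for Grik2 (n = 31, a description). The part of these markers was not tested.

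Of the 173 annotated transcripts of the 36 genes, 118 passed the filter, among 41273 transcripts tested. In 29 of the 36 genes 1 transcript held over 50% of the TPM. In SIR females against control females 4 transcripts passed, beside 0.274% of all transcripts tested, and each is of a gene named above: Grm2-201 (0.78 ± 0.12, edgeR adjusted p 0.00459), Cacng3-201 (0.80 ± 0.14, 0.00642), Grin2d-201 (0.46 ± 0.08, 0.00642) and Cacng4-201 (0.29 ± 0.05, 0.00642). For the difference between the sexes 3 transcripts passed, beside 0.170% of all transcripts: Grm2-201 (-1.07), Cacng3-201 (-0.96) and Grin2d-201 (-0.53). Over both sexes Cacng4-201 passed (0.17 ± 0.04, edgeR adjusted p 0.0482), beside 0.177% of all transcripts. In males none passed in edgeR, beside 0.0267% of all transcripts, and 16 of the 118 had an unadjusted p under 0.05. How many of all transcripts lay under that unadjusted p was not counted. Between males and females Grm3-201 (-0.32, edgeR adjusted p 0.0162) and Neto2-204 (lower in males, edgeR adjusted p 0.0375) passed, beside 1.58% of all transcripts. Neto2-204 is a minor form with 4.26% of the TPM of its gene on average, listed at 0 in all 7 SIR males and in at least 1 library of each other group, so no fold is given for it. Without the library titled SIR female 5 the same transcripts passed in females (0.208% of all transcripts), for the difference between the sexes (0.242%) and between males and females (1.41%), while Cacng4-201 over both sexes did not (0.16, edgeR adjusted p 0.0841).

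Other proteins of the glutamate synapse were followed through lists of scaffolds, trafficking proteins, extracellular organizers, G protein signalling and glutamate transport. Organizers are secreted or membrane proteins that cluster receptors from outside the cell. In SIR females 4 of the 23 organizers were higher and 2 lower, beside 2.38% of all genes higher and 2.24% lower. Nptxr, a pentraxin that gathers AMPA receptors, rose by 0.59 ± 0.14 (log2 ± SE, edgeR adjusted p 0.0175), and Olfm1, an olfactomedin, by 0.26 ± 0.07 (0.0199). C1ql2, which binds kainate receptors at mouse mossy fibre synapses, rose by 1.10 ± 0.28 (0.0230), and Cbln4, a cerebellin, had -1.22 ± 0.32 (0.0258). The median of the list was 0.02, and all 6 passed without the library titled SIR female 5.

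Of the 24 scaffolds and kinases, 1 was lower in SIR females and 2 in SIR males, and 1 was lower over both sexes, beside 2.24%, 1.05% and 2.79% of all genes lower in these comparisons. Cnksr2, a postsynaptic scaffold, was among them in all 3 comparisons, at -0.26 ± 0.08 in females (edgeR adjusted p 0.0406), -0.33 ± 0.08 in males (0.0323) and -0.30 ± 0.06 over both sexes (0.0124). Camk2d, a calmodulin-dependent kinase, was the other in males (-0.19 ± 0.05, edgeR adjusted p 0.0448). Of the 20 trafficking genes, Frrs1l, which helps assemble AMPA receptors, was the 1 that was lower over both sexes (-0.17 ± 0.05, edgeR adjusted p 0.0471). Gnaq, the G protein of the Gq-coupled receptors, was lower over both sexes (-0.11 ± 0.03, edgeR adjusted p 0.0275), 1 of 19 signalling genes tested. The glial glutamate transporter gene Slc1a3 was higher in SIR females (0.24 ± 0.07, edgeR adjusted p 0.0476), 1 of 14 transport genes. Beside these single genes, 2.79% of all genes were lower over both sexes and 2.38% higher in females. Without the library titled SIR female 5, Cnksr2 in females (adjusted p 0.0729), Slc1a3 in females (0.0796) and Frrs1l over both sexes (0.0740) did not pass in edgeR, and the other calls of these lists were kept. Nlgn3, a postsynaptic adhesion protein, was the organizer that passed in males (-0.15 ± 0.04, edgeR adjusted p 0.0442).

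Of the 36 genes, 24 passed in none of the 5 comparisons. They include 3 of the 4 AMPA genes (Gria1, Gria2 and Gria3), 4 of the 5 kainate genes, Grid1 and 4 of the 6 metabotropic genes. Gria1, the most abundant AMPA subunit, had a log2 fold change of -0.05 in SIR males and 0.10 in SIR females. Gria2, which makes AMPA receptors calcium-impermeable, had -0.25 in SIR males (edgeR adjusted p 0.140) and -0.12 in SIR females (edgeR adjusted p 0.455). Cacng7 and Cacng2, TARP genes of high level, stayed between -0.06 and 0.13 in both sexes. An adjusted p above the threshold does not show that such a gene had equal levels in the groups.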

How the data were processed

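For 31 thalamus samples a stranded mRNA kit from Illumina was used on polyadenylated RNA, per the labels' protocols. FastQC and kallisto were run on build GRCm39, per the submitters' processing notes; their versions and the strand setting are not given in the sources used here. For each of 105878 transcripts the authors deposited an estimated count, a TPM value and, as other values in bases, a length and an effective length, per the file headers. Neither the estimated counts nor the TPM were altered further by the authors as far as the values show.

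Transcripts were matched by identifier to GENCODE M21, made for GRCm38 (99.12% matched), and the 929 unmatched transcripts, which took 0.689% to 0.755% of the counts, were left out. Each gene received the rounded sum of the estimated counts of its transcripts. Genes kept by filterByExpr (14886) were scaled by TMM and fitted with 4 group means and 1 shared spread over all 31 libraries by the robust quasi-likelihood method of edgeR 4.0.16 in R 4.3.3. P-values were adjusted by Benjamini-Hochberg over all genes, with a threshold of 0.05. CPM are on TMM-scaled totals. Transcripts were fitted likewise, on 41273 transcripts. No pair of libraries held identical values. The alternatives used other scaling, filters of none or at least 1 CPM in 15 libraries, DESeq2 1.42.0, limma 3.58.1 (voom with sample weights, or log2 of TPM plus a pseudocount of 1), a length trend removed, 2 components of marker scores, and libraries left out. Marker scores were not rescaled before the components were taken, so the lists with the widest scores weigh most.

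The genes and lists were chosen with earlier results of these data known. Genes that passed in any of the 5 comparisons are described by group, up to 3 of the others per class by level, and up to 4 per synapse list by smallest p. Grm5, the Gria1 exon forms and the promoters shown were chosen after values were seen. Each p-value treats animals as separate because litters are not labelled.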

Additional observations from a re-analysis of the deposited data

Results flagged for a closer look

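The SIR effect differed between males and females, by the interaction term of edgeR, for 6 genes (male effect minus female effect, log2): Grm2 (-1.13), Cacng3 (-0.97), Grin2d (-0.61), Grin3a (-0.45), Shisa9 (-0.44) and Cacng4 (-0.26).

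Within the 4 groups, 144 combinations of gene and group were examined for a library far from the others of its group, and 10 were found, where chance flags about 1 in 20 (7.2 of 144). Control male 16 stood apart in 4 genes, high in each: Grin1 at 594 CPM (next library 521), Grm4 at 186 CPM (next 151), Cacng5 at 95.8 CPM (next 76.9) and Shisa7 at 57.6 CPM (next 49.1). Control female 20 stood apart in 3 genes, high in Grik5 at 134 CPM (next 105) and Cacng8 at 34.0 CPM (next 26.1) and low in Cacng2 at 94.8 CPM (next 121.5). Control female 29 was low in Grin2d at 46.8 CPM (next 54.7). SIR female 2 was high in Grid1 at 112 CPM (next 102), and SIR male 15 was high in Cacng4 at 134.5 CPM (next 112).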

How the results depend on the processing

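No gene called in a comparison changed sign in any alternative run. Cacng3 and Grin2d in females, and Grm2, Cacng3, Grin2d and Shisa9 for the difference between the sexes, passed in every alternative and every fit with 1 library left out, as did Grm3 between the sexes. In females Grm2 and Cacng4 lost their calls in 1 of 14 alternatives, the one without the 8 libraries with numbers apart (adjusted p 0.0601 and 0.0695). Neto1 and Cnih2 in females lost theirs in 7 of 14 each, limma on log2 TPM and the fit of only the female libraries included. Shisa9 in females lost its call in 3 of 14. No paired analysis was possible because each replicate number in the titles occurs in 1 group only.

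Counts of the 36 genes that passed moved as follows, and the cause was not tested. The share of all genes that passed under the same setting stands in brackets. Counts at an unadjusted p under 0.05 have no such share, since they were made for the 36 genes and their transcripts only. Over both sexes (4 in the report, 4.55%) they were 2 without a filter (1.73%), on log2 TPM (2.1%) and without SIR female 5 (2.07%), 7 with DESeq2 (7.77%), 9 with voom (8.57%), 10 with 2 components of marker scores (6.63%), 1 with the length trend removed (0.524%) and 1 without the 2 libraries highest in midbrain markers (0.771%, chosen after seeing the data). Without the 8 libraries with numbers apart the count was 0, with 7 at an unadjusted p under 0.05. In males (1 in the report, 1.33%) the edgeR count was 0 with RLE or upper-quartile scaling, without a filter, with 1 CPM in 15 libraries, with the length trend removed and with only the male libraries, and likewise by limma on log2 TPM (7 to 10 genes at an unadjusted p under 0.05, and 0.242% to 1.55% of all genes passed). It was 4 with DESeq2 (4.21%) and with marker components (4.68%), 3 with voom (4.29%), without SIR female 5 (1.47%), without the 8 libraries (3.63%) and without the 2 shallowest (2.55%), and 2 without the midbrain-rich libraries (2.21%). In females (7 in the report, 4.62%) it was 14 with marker components (6.17%), 2 without the 8 libraries (0.302%) and 4 without the midbrain-rich ones (1.29%). Between the sexes (4 in the report, 10.1%) it was 11 with voom (20.1%) and 2 without the 8 libraries (3.46%). Of transcripts over both sexes, 1 passed in the report and 0 in edgeR without SIR female 5 (17 at an unadjusted p under 0.05), an alternative chosen after seeing the data.

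With 1 library left out, the counts ran from 2 to 6 over both sexes, 0 to 4 in males, 4 to 9 in females, 4 to 6 for the difference between the sexes and 2 to 9 between males and females. In these 31 fits Neto1 in females lost its call without control female 29 (highest adjusted p 0.0631), Gria4 between the sexes without SIR male 1 (0.0635), Cnih2 and Shisa9 in females in 10 fits each (up to 0.101 and 0.103), Grik2 in males in 16 (up to 0.128), and Grin3a and Cacng4 for the difference between the sexes in 6 and 17 (up to 0.0527 and 0.0701). Grin1 between the sexes lost its call in 8. Depth limits Grin3b most, at 4 to 29 counts a library.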
